A study of Mus musculus with 9 samples.

Results

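The genes described here are 33 mouse genes of DNA damage repair and of the checkpoint that stops the cell cycle at damaged DNA, followed in CD8 T cells before and after priming. They were taken from the deposited expression table by gene symbol, from a list given for this work and not from their values. All 33 were found among the 23936 genes with a symbol, and all 33 passed the filter of at least 1 FPKM in at least 3 libraries that left 10185 genes for testing. FPKM are fragment numbers divided by transcript length and by library size. The study sequenced RNA of OT-I cells, which are CD8 T cells with a transgenic receptor for an ovalbumin peptide, in 9 libraries. The 3 naive libraries came from the spleen, the 3 spleen-primed libraries from the spleen and the 3 MLN-primed libraries from the MLN, a gut-draining lymph node. The titles add iv to the spleen-primed and oral to the MLN-primed cells, so organ and title word cannot be told apart between the primed groups. All groups carry the same transgenic receptor; the sources used here give no age, sex, priming agent, time after priming or sorting gate. According to its title, the series deals with retinoic acid at priming and with resident memory cells of the intestine. Nothing in the labels says that each library came from its own animal, so the p-values measure the spread between libraries, which may be technical.

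Every round of DNA copying leaves breaks, mispaired bases and stalled forks, and a cell that divides fast must mend them before it segregates its chromosomes. Homologous recombination mends a broken chromosome by copying the sister chromatid, which exists only after replication, whereas end joining ligates broken ends at any stage of the cell cycle. Base excision repair and its single-strand break enzymes replace damaged bases, mismatch repair corrects copying errors, and the Fanconi pathway unhooks crosslinked strands. The kinases Atm and Atr sense breaks and stalled forks and pass the signal to Chek2 and Chek1. Activated CD8 T cells are among the fastest dividing cells of the adult mouse, while naive T cells rest. Many replication and recombination genes are known targets of the E2F factors, which bind to short GC-rich letters near the start of a gene.

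The letters that E2F factors are known for were looked up in promoter windows of 300 bases, from 250 before to 50 after an annotated start, taken from RefSeq on the build GRCm38.p6. Windows were present for 27 of the 33 genes, 30 in all, since Lig4, Rad18 and Rad54l have 2 starts each; a gene counts as a match where any of its windows holds the letters. The letters searched on both strands were TTTCCCGC, TTTGGCGC, TTTCGCGC and TTTGCCGC. At least 1 of them lay in a window of 5 of the 27 genes (18.5%), against 2.6% of the 27025 genes with a window and 5.26% of the 8247 such genes that were tested. The 5 genes are Bard1, Brca2, Chek2, Msh6 and Xrcc6, and all 5 were higher in both primed groups than in naive cells, by values given below. Each match was TTTCCCGC or, read on the other strand, GCGGGAAA, in capitals in the 30-base stretches that follow, written in the direction of the gene.
Bard1, chr1:71103163-71103192: ccgccgctcagTTTCCCGCtcaggaagttt
Brca2, chr5:150522442-150522471: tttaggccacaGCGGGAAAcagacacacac
Chek2, chr5:110839820-110839849: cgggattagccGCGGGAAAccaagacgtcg
Msh6, chr17:87975054-87975083: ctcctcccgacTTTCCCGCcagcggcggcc
Xrcc6, chr15:82016312-82016341: agggggtggaaGCGGGAAAtgcgagtgggc
The match lay 209 bases before the start used for Bard1, 168 before that of Brca2 and 152 before that of Chek2. It lay 46 before that of Xrcc6 and 15 after that of Msh6. The annotated genes of Brca2, Chek2 and Xrcc6 begin earlier than the start used, at positions 150522297, 110839800 and 81987833. Their E2F matches therefore lie inside the annotated gene. A second set of letters, the CHR element of genes used late in the cell cycle (TTTGAA and TTCGAA, both strands), was found for 3 of 27 genes (11.1%), Apex1, Atr and Bard1, against 21.7% of all genes with a window and 16.8% of the tested ones. A match describes the letters only.

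The 250 bases before the start used are shown whole for 2 genes, 1 with an E2F match and 1 without. Both are recombination genes and rose by very different amounts. For Brca2 these bases lie inside the annotated gene, which begins at position 150522297. For Rad51ap1 the annotated gene begins at position 126939621, within the bases shown. Brca2, on the plus strand, holds the match in capitals, and Rad51ap1, on the minus strand, holds none of the letters.
Brca2, chr5:150522371-150522620: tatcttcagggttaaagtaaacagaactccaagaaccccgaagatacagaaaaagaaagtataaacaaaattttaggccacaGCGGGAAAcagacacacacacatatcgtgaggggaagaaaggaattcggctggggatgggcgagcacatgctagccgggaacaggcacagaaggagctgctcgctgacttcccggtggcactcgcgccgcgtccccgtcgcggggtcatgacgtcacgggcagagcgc
Rad51ap1, chr6:126939588-126939837: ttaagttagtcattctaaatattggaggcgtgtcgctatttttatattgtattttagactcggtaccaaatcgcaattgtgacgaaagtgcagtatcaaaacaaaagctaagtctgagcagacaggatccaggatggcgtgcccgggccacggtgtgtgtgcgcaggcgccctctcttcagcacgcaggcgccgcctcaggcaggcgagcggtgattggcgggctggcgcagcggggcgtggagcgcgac
Brca2 had the smallest and Rad51ap1 the largest change of the 9 recombination genes in spleen-primed cells on the log2(FPKM + 1) scale, whereas by fold of mean FPKM Palb2 was the lowest (2.80) and Rad54l the highest (77.5). None of the letters were found in the windows of Rad54l and Chek1 either. Only these exact letters were searched, so a window without a match may still hold related letters.

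Total FPKM were 612887 to 720165 per library. FPKM do not state depth, but the steps between the lowest values put it at 20500000 to 33800000 fragments per library, assuming fragments of 200 bases; 64.1% to 68.8% of the low values checked lay within 0.1 of a whole fragment, so this is an estimate. The lowest naive values of Rad54l and Rad51ap1 rest on an estimated 12.5 and 13 fragments, and the size of their folds is uncertain to that extent. CD8 T cell markers were high in all libraries, with a summed level of 3274 to 3602 FPKM in naive, 2339 to 2442 after spleen priming and 1545 to 1612 after MLN priming. Of the 6 dendritic cell and MHC class II markers, which summed to 93.3 to 164 FPKM in naive, 2.85 to 7.29 after spleen priming and 2.92 to 3.91 after MLN priming, Flt3 was listed at 0 in 5 of the 6 primed libraries. The 5 myeloid markers in the table summed to 3.92 to 13.4, 44.7 to 48.7 and 15.7 to 18.9 FPKM in that order, with Itgam and Cd68 as the main part in primed cells and Lyz2 at or below 1.70 FPKM there. The 6 B cell markers summed to 11.2 to 14.9, 6.49 to 8.32 and 11.3 to 14.5 FPKM in that order. Cd79b was the main part of this sum, and Ms4a1 was at or below 0.134 FPKM in every library. The 5 epithelial markers summed to 0.856 to 1.22 FPKM in naive and 1.51 to 1.98 FPKM after MLN priming. Their spleen-primed sums lay within the naive range, and the epithelial marker Krt8 was listed at 0 in all libraries. The sum of the 6 red cell markers differed widely within groups. It was 8.14 to 56.8 FPKM in naive, 2.92 to 30.1 after spleen priming and 0.346 to 60.1 after MLN priming. The part of these cells in the results below was not tested, and in bulk RNA fewer cells of a type and less RNA per cell cannot be told apart. Spleen-primed 3 and MLN-primed 1 stood apart from the other libraries of their groups: their deviations from the group means over all tested genes ran opposite to each other (r = -0.70), and those of spleen-primed 1 and MLN-primed 1 ran together (r = 0.645). Results that rest on these libraries are given with and without them.

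Most repair genes were higher after priming, by very unequal amounts. In spleen-primed cells 24 of the 33 rose and 4 fell against naive cells (limma, adjusted p under 0.05), where 43.1% of all tested genes rose and 32.7% fell (75.8% in either direction). In MLN-primed cells 27 of 33 rose and 3 fell, where 45.5% of tested genes rose and 33.2% fell (78.7% in either direction). The median log2 change of the 33 genes was 0.86 after spleen priming and 1.32 after MLN priming, against 0.10 and 0.15 over all tested genes. Both comparisons use the same naive libraries. The counts of rises and falls in the lists below stand beside these shares of all tested genes. Together the 33 genes summed to 187 to 211 FPKM in naive, 394 to 432 after spleen priming and 516 to 562 after MLN priming. The 9 recombination genes and the 3 Fanconi genes rose in both primed groups, each of them without overlap between the libraries. How many of all tested genes also lacked overlap was not counted. A lack of overlap, here and below, is thus not shown to be particular to the genes named. Of the 5 end-joining genes, 2 were higher (40.0%) and 2 lower (40.0%) in each primed group, near the shares of all tested genes.

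**Figure D1:**
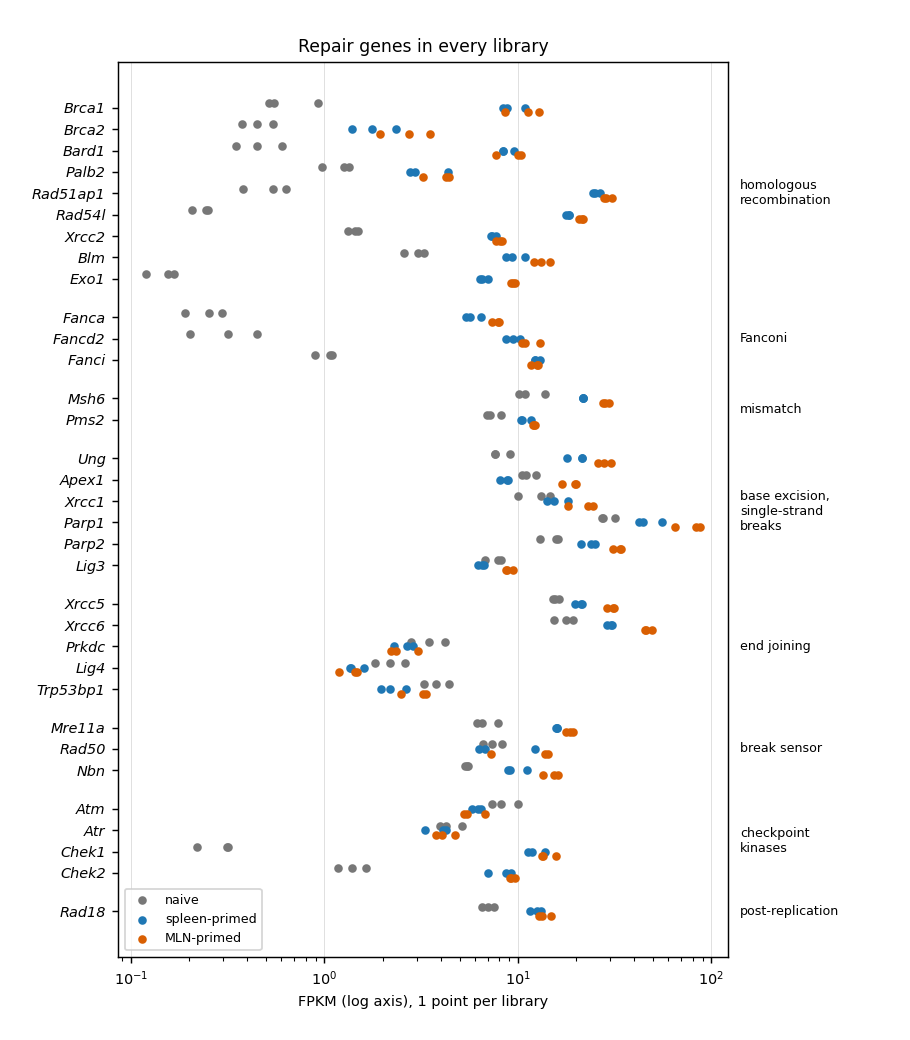
Level of each of the 33 repair genes in every library, in FPKM on a log axis, grouped by role, with 1 point per library (grey naive, blue spleen-primed, orange MLN-primed). Recombination and Fanconi genes are at or below 3.27 FPKM in naive libraries and shift to the right by up to 91.2-fold, whereas Atm, Atr, Prkdc, Lig4 and Trp53bp1 stay near or below their naive level.

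Rad51ap1 (gene ID 19362, chr6:126923415-126939621, minus strand), whose protein aids strand pairing, had the largest log2 change of the 33. Here and below, values are listed for libraries 1, 2 and 3 of a group. Rad51ap1 measured 0.380, 0.540 and 0.634 FPKM in naive, 25.0, 24.4 and 26.5 after spleen priming and 28.6, 27.8 and 30.8 after MLN priming. The primed libraries lay far above every naive one, with a log2 change of 4.12 ± 0.09 (SE; adjusted p = 1.31e-10) after spleen priming and 4.31 ± 0.09 (adjusted p = 9.44e-11) after MLN priming, that is 48.8-fold and 56.0-fold in mean FPKM. Log2 changes were computed on log2(FPKM + 1), where the change of a low gene comes out too small. Rad54l (gene ID 19366, chr4:116094261-116123700, minus strand), a motor protein of strand exchange, measured 0.249, 0.246 and 0.208 FPKM in naive, 18.4, 18.3 and 17.7 after spleen priming and 20.7, 21.6 and 21.8 after MLN priming. Its folds of mean FPKM, 77.5 and 91.2, were the largest among the 33 genes. Exo1 (gene ID 26909, chr1:175880768-175911396, plus strand), the nuclease that trims broken ends back to single strands, measured 0.120, 0.155 and 0.167 FPKM in naive, 6.56, 6.41 and 7.05 after spleen priming and 9.17, 9.48 and 9.67 after MLN priming. Here the 3 groups did not overlap at all, and the log2 changes from naive were 2.74 ± 0.08 and 3.19 ± 0.08.

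The genes of the Brca complexes, which act on trimmed ends, rose less evenly. Brca1 (gene ID 12189, chr11:101488761-101551955, minus strand) measured 0.516, 0.548 and 0.927 FPKM in naive, 8.83, 8.42 and 10.9 after spleen priming and 8.57, 12.8 and 11.2 after MLN priming. Its partner Bard1 (gene ID 12021, chr1:71027535-71103141, minus strand), with which it forms a ubiquitin ligase, measured 0.447, 0.351 and 0.606, then 8.42, 8.38 and 9.50, then 7.72, 9.96 and 10.3 FPKM. Both rose by similar amounts, with log2 changes in spleen-primed cells of 2.64 ± 0.16 for Brca1 and 2.74 ± 0.12 for Bard1, and the ratio of their FPKM, which is per length, was 1.42 ± 0.226 (SD, n = 3) in naive, 1.07 ± 0.0735 after spleen priming and 1.16 ± 0.107 after MLN priming. Brca2 (gene ID 12190, chr5:150522297-150570147, plus strand), which prepares the trimmed end for strand exchange, was far lower in primed cells, at 1.39, 1.76 and 2.35 FPKM after spleen priming and 1.93, 3.51 and 2.75 after MLN priming, from 0.375, 0.448 and 0.542 in naive ones. It still lay above every naive library in each primed library, with a rise of 4.03-fold and 6.0-fold. Palb2, the bridge between Brca1 and Brca2, rose by 2.80-fold and 3.31-fold in mean FPKM. Xrcc2, which aids strand exchange, rose by 5.26-fold and 5.66-fold, and Blm, a helicase that dissolves joined chromatids, by 3.23-fold and 4.48-fold. Blm measured 3.06, 2.59 and 3.27 FPKM in naive, 8.70, 9.29 and 10.8 after spleen priming and 12.1, 14.7 and 13.2 after MLN priming.

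Of 25 other recombination genes, 19 rose and 1 fell in spleen-primed cells and 20 rose and 2 fell in MLN-primed cells. Among those that rose in both were the helicase gene Hells (mean 2.42, 49.2 and 82.1 FPKM in the naive, spleen-primed and MLN-primed groups) and the nuclease gene Dna2 (0.133, 10.7 and 14.7 FPKM). Rad52, which in mouse cells has a minor role beside Brca2, went the other way, with a log2 change of -0.78 after spleen priming and -0.75 after MLN priming.

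The 3 Fanconi genes were low in naive cells and rose in both primed groups. Fancd2 (gene ID 211651, chr6:113531640-113597020, plus strand) measured 0.448, 0.316 and 0.202 FPKM in naive, 8.65, 9.46 and 10.3 after spleen priming and 10.5, 13.1 and 10.9 after MLN priming. Its partner Fanci (gene ID 208836, chr7:79392312-79450266, plus strand) measured 1.07, 0.894 and 1.10, then 12.3, 13.1 and 12.3, then 12.6, 12.7 and 11.7 FPKM. Fancd2 and Fanci form the clamp that is ubiquitylated at a crosslink. Fancd2 was the lower partner in each naive library, with a ratio to Fanci of 0.319 ± 0.121 (SD, n = 3), and came near to it in primed libraries, with 0.754 ± 0.0725 and 0.933 ± 0.0971. The lowest naive value of Fancd2 rests on an estimated 24.4 fragments. Of the exon bases of Fanci, 13.4% overlap Polg on the other strand, whose part in the ratio was not tested. Fanca, of the core complex that ubiquitylates the clamp, measured 0.191, 0.252 and 0.294 FPKM in naive, 5.39, 5.63 and 6.48 after spleen priming and 7.35, 8.03 and 7.87 after MLN priming. That is a rise of 23.7-fold and 31.5-fold in mean FPKM. Of 11 other Fanconi genes, 8 rose and 0 fell in each primed group, with the largest rise in spleen-primed cells for Ube2t, the ubiquitin-conjugating enzyme of the pathway, at a log2 change of 1.99.

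Both mismatch genes rose modestly. Msh6 (gene ID 17688, chr17:87975050-87990892, plus strand), which recognises the mispair, measured 13.8, 10.1 and 10.8 FPKM in naive, 21.7, 21.7 and 21.8 after spleen priming and 28.2, 29.4 and 27.6 after MLN priming. Unlike the recombination genes it was well expressed before priming, and its rise was 1.87-fold and 2.45-fold. Pms2, the nicking subunit, rose by 1.47-fold and 1.63-fold. Of 5 other mismatch genes 3 rose (60.0%) and 1 fell (20.0%) in each primed group. Of all tested genes 43.1% and 45.5% rose and 32.7% and 33.2% fell. The gene that fell was Mlh3, with a log2 change of -1.0 and -0.64, while Pms1 rose by 0.66 and 0.71.

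**Figure D2:**
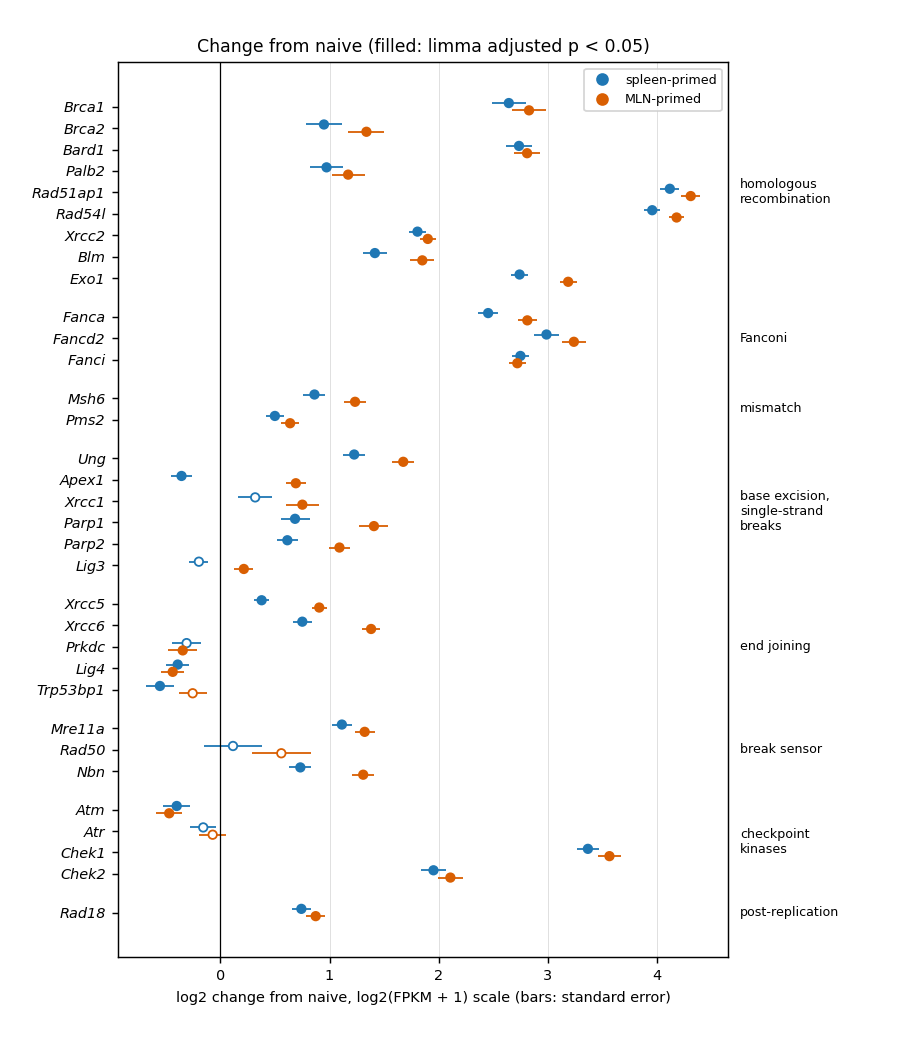
Log2 change from naive of each repair gene in spleen-primed (blue) and MLN-primed (orange) cells, on the log2(FPKM + 1) scale with standard errors; filled points passed an adjusted p of 0.05. Rad51ap1 and Rad54l lie near 4, the end-joining genes lie on both sides of 0, and Apex1 is below 0 after spleen priming and above 0 after MLN priming.

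Of the 6 genes of base excision and single-strand break repair, 3 rose, 1 fell and 2 did not pass in spleen-primed cells, whereas all 6 rose in MLN-primed cells. Ung (gene ID 22256, chr5:114130366-114139321, plus strand), the glycosylase that removes uracil from DNA, measured 7.58, 7.65 and 9.10 FPKM in naive, 21.6, 18 and 21.3 after spleen priming and 28.0, 25.9 and 30.3 after MLN priming. It had the largest rise of the 6, with log2 changes of 1.23 ± 0.10 and 1.68 ± 0.10. Parp1 (gene ID 11545, chr1:180568891-180600999, plus strand), which marks nicked DNA with poly(ADP-ribose), was the most abundant of the 33 genes per length, with 27.3, 27.6 and 31.9 FPKM in naive, 42.0, 44.6 and 55.3 after spleen priming and 65.3, 83.6 and 87.6 after MLN priming. Its relative Parp2 measured 13, 16.1 and 15.8, then 23.9, 21.3 and 25.0, then 30.9, 33.7 and 34.2 FPKM. For both Parp genes the 3 groups followed each other without overlap, and the ratio of Parp1 to Parp2 was 1.94 ± 0.203 (SD, n = 3), 2.02 ± 0.236 and 2.38 ± 0.239.

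Apex1 (gene ID 11792, chr14:50924949-50927188, plus strand), the endonuclease that cuts at a site that has lost its base, was the only one of the 33 genes that passed in opposite directions. It measured 10.5, 11.1 and 12.4 FPKM in naive, 8.84, 8.93 and 8.04 after spleen priming and 19.7, 16.9 and 20.1 after MLN priming. The 3 groups did not overlap: the log2 change was -0.36 ± 0.09 (adjusted p = 0.00597) after spleen priming and 0.69 ± 0.09 (adjusted p = 6.68e-05) after MLN priming. In the annotation 70.8% of its exon bases also lie in exons of Pip4p1 on the other strand, a gene that the table lists as Tmem55b. Tmem55b measured 15.3, 16.5 and 16.7 FPKM in naive, 11.3, 10.8 and 11.4 after spleen priming and 19.7, 16.2 and 17.7 after MLN priming, an order of groups close to that of Apex1. Whether strand was used in the quantification is not given in the sources used here, and without strand the reads of both genes cannot be told apart, so the values of Apex1 are uncertain to that extent.

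Lig3 (gene ID 16882, chr11:82781109-82804274, plus strand), the ligase that seals single-strand breaks, measured 7.90, 6.73 and 8.16 FPKM in naive, 6.24, 6.55 and 6.65 after spleen priming and 8.65, 9.41 and 8.79 after MLN priming. Each spleen-primed library lay below and each MLN-primed library above all naive ones, by little: the log2 change was -0.20 ± 0.09 (adjusted p = 0.064) in spleen-primed cells, which did not pass, and 0.21 ± 0.09 (adjusted p = 0.0449) in MLN-primed cells. The lower level in spleen-primed cells did pass under median-of-ratios scaling (log2 change -0.31, adjusted p = 0.00541), under quantile normalisation (-0.20, adjusted p = 0.0494) and without naive 2 (-0.27, adjusted p = 0.0147), and turned to 0.03 (adjusted p = 0.692) with a trend with length and GC content removed. The rise in MLN-primed cells is not secure, since it missed the threshold under median-of-ratios scaling (log2 change 0.06, adjusted p = 0.493), without naive 2 (log2 change 0.14, adjusted p = 0.143) and without any 1 of the primed libraries (log2 change 0.18 to 0.24). Of the exon bases of Lig3, 27.9% overlap Rffl on the other strand, which had means of 4.98, 2.07 and 1.93 FPKM in the naive, spleen-primed and MLN-primed groups. Xrcc1, the scaffold that holds Lig3, measured 10.0, 14.6 and 13.2 FPKM in naive, 14.1, 15.3 and 18.1 after spleen priming and 18.2, 22.9 and 24.4 after MLN priming. Its change of 0.32 ± 0.15 in spleen-primed cells did not pass (adjusted p = 0.083), though it did with the replicate number as a block (adjusted p = 0.0113), and its change of 0.75 ± 0.15 in MLN-primed cells passed (adjusted p = 0.00118).

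Among 16 other tested genes of base excision and single-strand break repair, 9 rose (56.3%) and 4 fell (25.0%) in spleen-primed cells. In MLN-primed cells 9 rose (56.3%) and 2 fell (12.5%). Of all tested genes 43.1% and 45.5% rose and 32.7% and 33.2% fell. The ligase Lig1 had means of 6.93, 100.4 and 124 FPKM in the naive, spleen-primed and MLN-primed groups, and the flap nuclease Fen1, which like it also serves replication, of 12.2, 90.6 and 96.2 FPKM. The glycosylase Neil3 had means of 0.118, 13.6 and 12.1 FPKM, and its relative Neil1 of 9.0, 3.76 and 4.26 FPKM. Thus 2 glycosylases of 1 family moved in opposite directions, and Smug1, another glycosylase that removes uracil, had log2 changes of -0.68 and -0.92 where Ung rose.

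Of the 5 end-joining genes, the 2 of the Ku ring rose in both primed groups, and none of the other 3 rose in the values as deposited. Xrcc6 (gene ID 14375, chr15:81987833-82040085, plus strand), the Ku70 gene, measured 19.3, 15.4 and 17.7 FPKM in naive, 30.8, 28.8 and 30.2 after spleen priming and 49.2, 45.6 and 45.9 after MLN priming. Xrcc5 (gene ID 22596, chr1:72307417-72394953, plus strand), the Ku80 gene, measured 15.6, 15.3 and 16.4, then 19.8, 21.4 and 21.1, then 31.0, 31.4 and 28.8 FPKM. For both genes the 3 groups lay one above the other without overlap, with log2 changes of 0.75 ± 0.09 and 1.38 ± 0.09 for Xrcc6 and 0.38 ± 0.07 and 0.91 ± 0.07 for Xrcc5. The ring holds both subunits in pairs, and the FPKM ratio of Xrcc5 to Xrcc6 was 0.910 ± 0.0934 (SD, n = 3) in naive, 0.695 ± 0.0502 after spleen priming and 0.649 ± 0.0346 after MLN priming. Lig4 (gene ID 319583, chr8:9970020-9977680, minus strand), the ligase that closes the break, measured 2.61, 2.19 and 1.83 FPKM in naive, 1.35, 1.37 and 1.59 after spleen priming and 1.43, 1.47 and 1.19 after MLN priming. It was lower in each primed library than in any naive one, with log2 changes of -0.39 ± 0.11 (adjusted p = 0.00675) and -0.44 ± 0.11 (adjusted p = 0.00333).

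Trp53bp1 (gene ID 27223, chr2:121194835-121296354, minus strand), which shields broken ends from trimming, measured 3.26, 3.76 and 4.38 FPKM in naive, 1.97, 2.19 and 2.65 after spleen priming and 2.49, 3.36 and 3.23 after MLN priming. It fell in spleen-primed cells (log2 change -0.55 ± 0.13, adjusted p = 0.00273) without overlap, and in MLN-primed cells its libraries overlapped with the naive ones (-0.25 ± 0.13, adjusted p = 0.0919). Prkdc, the kinase that Ku recruits, measured 3.49, 2.82 and 4.22, then 2.30, 2.87 and 2.68, then 2.36, 3.04 and 2.22 FPKM. Its libraries overlapped in both comparisons, and the log2 changes were -0.31 ± 0.13 (adjusted p = 0.0589) and -0.34 ± 0.13 (adjusted p = 0.0378). Of 11 other end-joining genes, 9 rose and 1 fell in each primed group. Polq, the polymerase of the alternative, microhomology-based route, had means of 0.351, 3.43 and 5.13 FPKM in the naive, spleen-primed and MLN-primed groups, and Xrcc4, the partner of Lig4, was the gene that fell, with means of 13.8, 8.70 and 7.5 FPKM.

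The sensor complex of Mre11a, Rad50 and Nbn, which tethers broken ends and activates Atm, did not move as a unit. Mre11a (gene ID 17535, chr9:14784654-14837125, plus strand), its nuclease, measured 6.52, 6.13 and 7.90 FPKM in naive, 15.8, 15.9 and 16.0 after spleen priming and 19.2, 18.7 and 17.7 after MLN priming. Nbn, which binds Atm, measured 5.33, 5.46 and 5.5, then 9.11, 8.92 and 11.2, then 13.4, 15.4 and 16.1 FPKM. Both rose in both primed groups, with log2 changes of 1.11 and 1.32 for Mre11a and 0.73 and 1.31 for Nbn. Rad50 (gene ID 19360, chr11:53649519-53707319, minus strand), the long coiled tether, measured 7.38, 6.62 and 8.24 FPKM in naive, 6.27, 6.79 and 12.2 after spleen priming and 7.30, 14.3 and 13.9 after MLN priming. Its primed libraries were thus split within each group, and neither change passed (0.12 ± 0.27, adjusted p = 0.709, and 0.56 ± 0.27, adjusted p = 0.0805). Without spleen-primed 3 the change in spleen-primed cells was -0.16 (adjusted p = 0.562), and without MLN-primed 1 the change in MLN-primed cells was 0.84 and passed (adjusted p = 0.00566). The change in MLN-primed cells passed as well without spleen-primed 3 (0.56, adjusted p = 0.0336), with only the naive and MLN-primed libraries in the fit (adjusted p = 0.0491), with the replicate number as a block (adjusted p = 0.0293) and with a trend with length and GC content removed (0.73, adjusted p = 0.0158). The FPKM ratio of Rad50 to Mre11a was 1.08 ± 0.0452 (SD, n = 3) in naive, 0.530 ± 0.206 after spleen priming and 0.642 ± 0.227 after MLN priming.

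Of the 4 checkpoint kinases, the downstream Chek1 and Chek2 rose in both primed groups, and the upstream Atr and Atm did not in the values as deposited. Chek1 (gene ID 12649, chr9:36708482-36726658, minus strand), the kinase of stalled forks, measured 0.319, 0.220 and 0.316 FPKM in naive, 13.8, 11.8 and 11.3 after spleen priming and 15.8, 13.5 and 13.3 after MLN priming. Atr, the kinase upstream of it, measured 3.95, 4.27 and 5.14, then 3.30, 4.12 and 4.26, then 4.06, 4.75 and 3.76 FPKM. While Chek1 rose by 43.1-fold and 49.9-fold, the Atr libraries overlapped between all groups and no change passed (log2 change -0.16 ± 0.12, adjusted p = 0.258, and -0.07 ± 0.12, adjusted p = 0.605). Chek2, the kinase of broken ends, measured 1.39, 1.17 and 1.64 FPKM in naive, 9.27, 8.64 and 6.99 after spleen priming and 9.62, 9.10 and 9.18 after MLN priming. Atm (gene ID 11920, chr9:53437122-53536828, minus strand), upstream of Chek2, measured 8.16, 7.36 and 9.99, then 5.82, 6.24 and 6.42, then 5.48, 6.79 and 5.30 FPKM. Chek2 rose by 5.94-fold and 6.65-fold, and Atm was lower in each primed library than in any naive one, with log2 changes of -0.40 ± 0.12 (adjusted p = 0.0125) and -0.47 ± 0.12 (adjusted p = 0.00501). The FPKM ratio of Chek1 to Atr moved from 0.0645 ± 0.0148 (SD, n = 3) in naive to 3.23 ± 0.817 and 3.43 ± 0.530 in primed cells, and that of Chek2 to Atm from 0.164 ± 0.00556 to 1.36 ± 0.253 and 1.61 ± 0.233.

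Of 12 other checkpoint genes 9 rose and 0 fell in spleen-primed cells, and 11 rose and 0 fell in MLN-primed cells. Clspn, the adaptor that brings Chek1 to Atr, had means of 0.497, 21.1 and 25.9 FPKM in the naive, spleen-primed and MLN-primed groups, and Tipin, of the fork protection complex, of 16.0, 103 and 135 FPKM. Of 9 other genes of break signalling 5 rose (55.6%) and 1 fell (11.1%) in spleen-primed cells. In MLN-primed cells 5 rose (55.6%) and 0 fell. Of all tested genes 43.1% and 45.5% rose and 32.7% and 33.2% fell. H2afx, the histone variant that is phosphorylated around a break, measured 26.0, 25.3 and 24.9 FPKM in naive, 233, 234 and 209 after spleen priming and 120.1, 122 and 111 after MLN priming. Trp53, the gene of p53, measured 86.9, 80.8 and 87.0, then 58.5, 61.0 and 69.8, then 79.6, 87.0 and 78.8 FPKM, with a log2 change of -0.43 ± 0.08 (adjusted p = 0.000706) in spleen-primed and -0.05 ± 0.08 (adjusted p = 0.551) in MLN-primed cells. In MLN-primed cells it also fell under median-of-ratios scaling (-0.22, adjusted p = 0.0144) and quantile normalisation (-0.64, adjusted p = 3.6e-05). Among 16 tested target genes of p53, 6 rose (37.5%) and 7 fell (43.8%) in spleen-primed cells, against 43.1% and 32.7% of all tested genes, and 6 rose and 8 fell in MLN-primed cells. Cdkn1a, the cell cycle inhibitor among them, measured 0.0280, 0.607 and 0.0253 FPKM in naive, 6.42, 5.97 and 6.03 after spleen priming and 6.62, 5.93 and 5.87 after MLN priming. It rose in both primed groups, from libraries at or near 0.

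Rad18, the ubiquitin ligase that lets forks pass a damaged base, measured 6.50, 6.99 and 7.56 FPKM in naive, 11.5, 12.6 and 13.1 after spleen priming and 13.3, 14.8 and 12.9 after MLN priming. It rose in both primed groups by 1.77-fold and 1.95-fold. Of 11 other genes of post-replication repair 5 rose (45.5%) and 5 fell (45.5%) in spleen-primed cells and 5 rose and 4 fell in MLN-primed cells, shares of rises near those of all tested genes, with Polh, a polymerase that copies past damage, higher by a log2 change of 2.18 and 1.98 and Rev3l, the catalytic subunit of another such polymerase, at -1.33 and -1.16. Nucleotide excision repair cuts out bulky damage and has no gene among the 33. Of its 19 genes 10 rose (52.6%) and 5 fell (26.3%) in spleen-primed cells and 11 rose (57.9%) and 7 fell (36.8%) in MLN-primed cells, against the 43.1% and 32.7%, and the 45.5% and 33.2%, of all tested genes. The damage sensor Xpc had the largest fall of that list, with log2 changes of -1.60 and -1.39. Over all 119 tested genes of the other repair lists, 77 rose and 18 fell in spleen-primed cells and 81 rose and 17 fell in MLN-primed cells, with median log2 changes of 0.52 and 0.67. The rise of the repair genes stood beside that of the cell cycle: all 25 tested S phase genes and all 12 genes of G2 and mitosis rose in both primed groups, with median log2 changes in spleen-primed cells of 2.94 and 5.83.

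The genes that fell or did not pass include Prkdc, the longest transcript of the set, and other long ones, though some long transcripts rose. Mean transcript lengths were 12647 bases for Prkdc, 9787 for Atm, 9513 for Trp53bp1 and 8102 for Atr. A trend of the values with transcript length differed between the libraries of a group. The log2 slope per doubling of length was -0.0514, -0.0275 and 0.0789 in spleen-primed libraries 1, 2 and 3 and -0.0892, 0.0631 and 0.0261 in MLN-primed libraries 1, 2 and 3. These slopes were taken on deviations from the mean of each library's own group, so they give no trend between groups. The removal described next used deviations from the mean of all 9 libraries. It therefore also takes out any trend with length or GC content between naive and primed cells, whose cause was not tested. When a trend with length and GC content was removed from each library, the direction of all 4 genes turned: in spleen-primed cells the log2 change became 0.31 (adjusted p = 0.0411) for Prkdc, 0.09 (adjusted p = 0.456) for Atm, 0.02 (adjusted p = 0.816) for Trp53bp1 and 0.24 (adjusted p = 0.0775) for Atr. In MLN-primed cells it became 0.25 (adjusted p = 0.0911) for Prkdc, 0.0037 (adjusted p = 0.975) for Atm, 0.30 (adjusted p = 0.00952) for Trp53bp1 and 0.34 (adjusted p = 0.0206) for Atr. The falls of Atm, Trp53bp1 and Prkdc that passed in the values as deposited were thus absent in the values without the trend. Lig4, at 5028 bases, kept its fall in both primed groups, and the fall of Apex1 in spleen-primed cells, at 1239 bases, was kept too. Brca2, at 10620.5 bases longer than Atm, Trp53bp1 and Atr, rose with and without the trend. Exo1, at 7796 bases, and Brca1, at 6572 bases, also rose in both primed groups. Of the exon bases of Trp53bp1, 22.1% overlap Tubgcp4 on the other strand, which had means of 5.85, 12.3 and 15 FPKM in the naive, spleen-primed and MLN-primed groups.

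**Figure D3:**
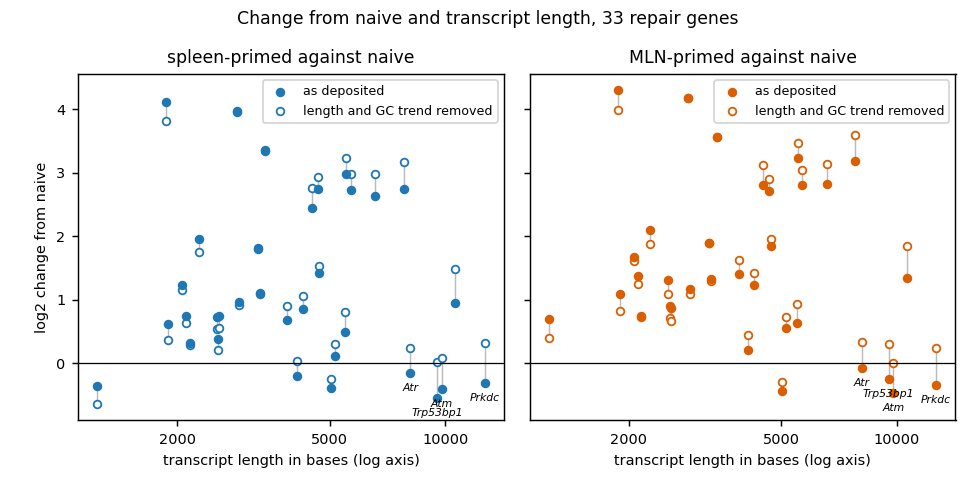
Log2 change from naive of the 33 genes against mean transcript length in bases (log axis), as deposited (filled) and after removal of the trend with length and GC content in each library (open), with a line joining both values of a gene; left spleen-primed, right MLN-primed. The 4 named genes move from below 0 to above 0; in the left panel they go from between -0.55 and -0.16 to between 0.02 and 0.31.

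Between the primed groups, repair genes were either higher in MLN-primed cells or did not pass. By limma, MLN-primed cells had higher levels of 13 of the 33 genes (39.4%) and lower levels of 0, where 17.3% of all tested genes were higher and 13.1% lower (30.4% in either direction). At an unadjusted p under 0.05 the number lower was 0 as well, and it was 0 under each of the 19 alternative settings. The median log2 difference was 0.25, against 0.03 over all tested genes, and 29 of 33 differences were above 0. The 13 genes are Apex1, Parp1, Xrcc6, Nbn, Xrcc5, Parp2, Ung, Exo1, Blm, Lig3, Msh6, Fanca and Rad54l. They include 5 of the 6 genes of base excision and single-strand break repair, both Ku genes, 3 of 9 recombination genes and none of the 4 checkpoint kinases.

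**Figure D4:**
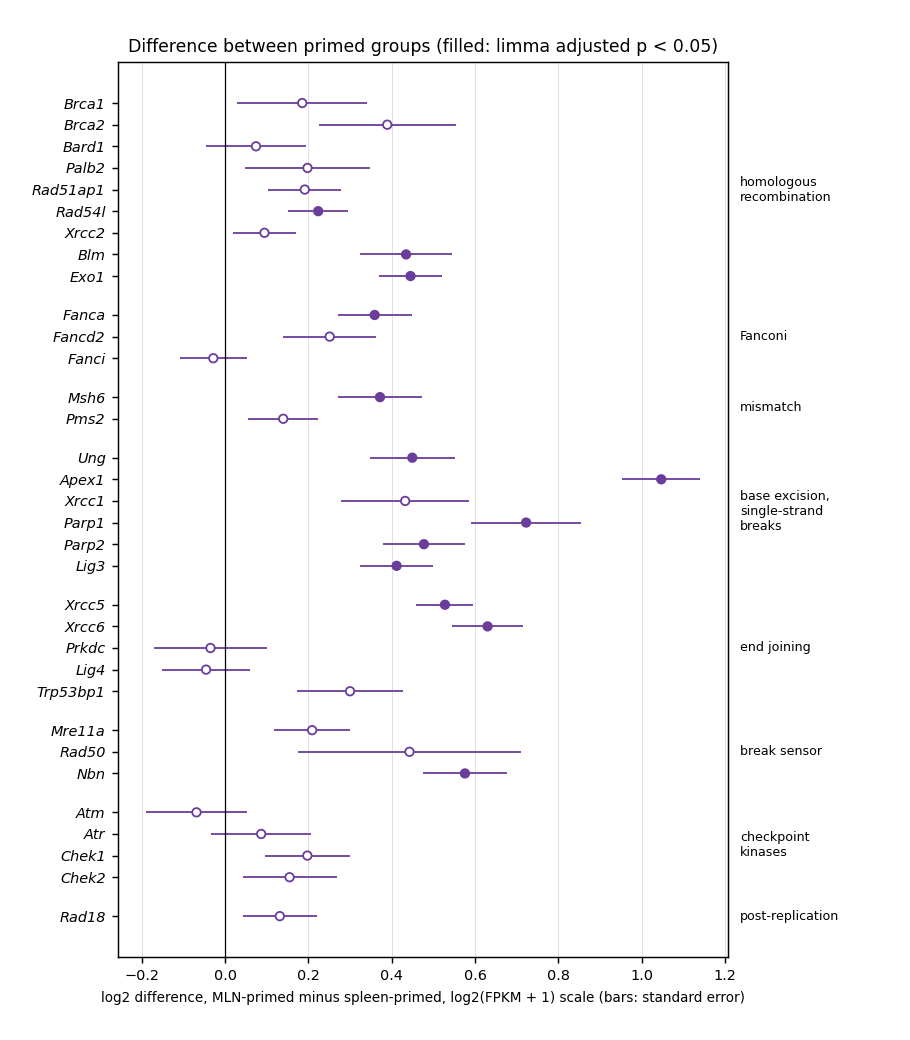
Log2 difference between the primed groups for each repair gene, MLN-primed minus spleen-primed, on the log2(FPKM + 1) scale with standard errors; filled points passed an adjusted p of 0.05. Apex1 lies farthest to the right at 1.05, and the 13 filled points are all above 0.

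Apex1 had the largest difference, at 1.05 ± 0.09 (adjusted p = 7.47e-05, 2.19-fold), with the reservation on Tmem55b given above, which differed by 0.63 ± 0.08. Parp1 followed with 0.72 ± 0.13 (adjusted p = 0.00299), Xrcc6 with 0.63 ± 0.09 (adjusted p = 0.000621), Nbn with 0.58 ± 0.10 (adjusted p = 0.00243) and Xrcc5 with 0.53 ± 0.07 (adjusted p = 0.000506). In each of these 5 genes every MLN-primed library lay above every spleen-primed one. These are genes that were already expressed in naive cells, at 5.43 to 28.9 FPKM on average. Their rise from naive to spleen-primed cells was at most 1.79-fold. A lack of overlap did not by itself make a call. Xrcc2 and Pms2 also lacked it between the primed groups and did not pass (limma, adjusted p = 0.392 and 0.246). Smaller differences were found for Parp2 (0.48 ± 0.10), Ung (0.45 ± 0.10), Exo1 (0.45 ± 0.08) and Lig3 (0.41 ± 0.09, adjusted p = 0.00641), again without overlap. For Lig3 and Apex1 this difference is also the difference between their changes from naive, since both changes share the naive libraries.

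**Figure D5:**
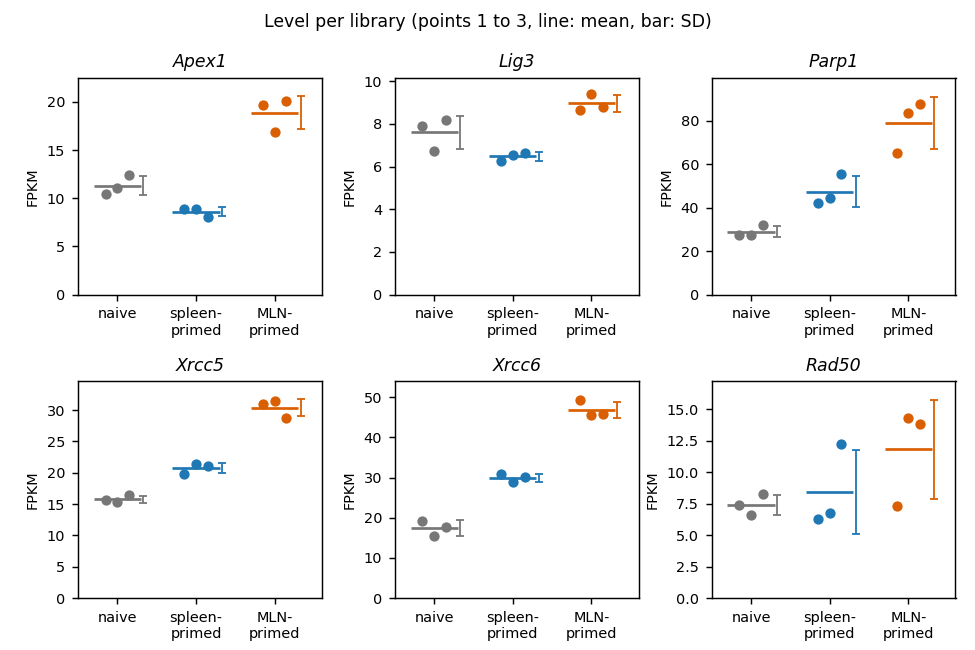
FPKM of 6 repair genes in each library, with points for libraries 1 to 3 of a group, a line at the mean and a bar for the SD; axes start at 0. Apex1 and Lig3 are lowest after spleen priming and highest after MLN priming, Parp1, Xrcc5 and Xrcc6 step up from naive to MLN-primed, and Rad50 is split within each primed group.

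The other 4 calls depended on single libraries or settings. Blm (0.43 ± 0.11, adjusted p = 0.015) did not pass without spleen-primed 1 (adjusted p = 0.0586), spleen-primed 2 (adjusted p = 0.0572) or MLN-primed 2 (adjusted p = 0.061), and Msh6 (0.37 ± 0.10, adjusted p = 0.0199) was lost without the same 3 libraries, 1 at a time. Fanca (0.36 ± 0.09, adjusted p = 0.0131) did not pass without spleen-primed 1 or 2 or with a pseudocount of 0.1, and Rad54l (0.22 ± 0.07, adjusted p = 0.0396) without any 1 of the primed libraries (log2 difference 0.21 to 0.24) or under another scaling. Their libraries did not overlap in the full data. Of the genes that did not pass, Xrcc1 had the smallest adjusted p (0.43 ± 0.15, adjusted p = 0.0591) and came with no overlap of libraries, followed by Brca2 (0.39 ± 0.16, adjusted p = 0.104) and Trp53bp1 (0.30 ± 0.13, adjusted p = 0.106), whose libraries overlapped. The strongly induced Rad51ap1 (0.19 ± 0.09, adjusted p = 0.131), Chek1 (0.20 ± 0.10, adjusted p = 0.175), Fancd2 (0.25 ± 0.11, adjusted p = 0.122) and Fanci (-0.03 ± 0.08, adjusted p = 0.828) did not pass either. Lig4 (-0.05 ± 0.11), Atm (-0.07 ± 0.12), Prkdc (-0.04 ± 0.13) and Atr (0.09 ± 0.12) differed by less than their standard errors.

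Rad50 differed by 0.44 ± 0.27 (adjusted p = 0.253) between the primed groups over all libraries. With MLN-primed 1 and spleen-primed 3 both left out, its difference was 1.0 (adjusted p = 0.000306). In that fit 18 of the 33 genes were higher. Of all 10185 genes, 3892 were then called in either direction, against 3093 over all libraries. The share of all genes higher in that fit is not given here, so the 18 cannot be set against it. Among the 33, the genes added were Rad50, Brca1, Brca2, Palb2, Xrcc1 and Trp53bp1, and Rad54l was lost. The 2 libraries of each group that remain then have negative length slopes after spleen priming and positive ones after MLN priming, so group and length trend cannot be told apart in that fit. Over all libraries Brca2, Palb2, Parp1, Xrcc1 and Nbn, among others, also had their highest spleen-primed value in library 3 and their lowest MLN-primed value in library 1.

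Of the 119 other repair genes tested, 30 were higher (25.2%) and 4 lower (3.36%) in the MLN-primed group than in the spleen-primed one, with a median difference of 0.16. Over all tested genes 17.3% were higher and 13.1% lower, and the counts of the lists below stand beside these shares. Of the 19 nucleotide excision genes 8 were higher and 2 lower (Xpa at -0.32 and Ddb2 at -0.30); among the higher ones was Rad23b, a partner of Xpc, with means of 42.7 FPKM after spleen priming and 64.8 after MLN priming (log2 difference 0.59). Of the 25 other recombination genes 7 were higher (28.0%), Hells among them at 0.73. Of 5 other mismatch genes 3 were higher, Mlh3 among them at 0.35. H2afx was lower in MLN-primed cells by a log2 difference of -0.93 ± 0.07 (adjusted p = 2.48e-05), with no overlap between libraries at 111 to 122 against 209 to 234 FPKM. Trp53 was higher by 0.37 ± 0.08 (adjusted p = 0.00639), and Cdkn1a did not pass (-0.00095 ± 0.16, adjusted p = 0.997). Beside these differences, 12 of 25 S phase genes were higher in MLN-primed cells, 6 under median-of-ratios scaling, with a median difference of 0.24, and 1 of 12 genes of G2 and mitosis was higher, with a median of 0.03.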

How the data were processed

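Per the labels' protocols, RNA from OT-I cells was isolated with an RNeasy Plus Micro kit and sequenced as TruSeq Stranded mRNA libraries. The authors deposited 1 table of FPKM per gene and library, made with TopHat and Cufflinks on mm10, as the submitters' processing notes name them. The sources used here give neither tool versions nor whether counting used strand. The FPKM were not rescaled, so libraries can still differ in scale. A second deposited table was identical and was not used. Of 24067 rows, 131 without a symbol (0.0479% of FPKM) were left out. Total FPKM and estimated depths are given in the report; counting error cannot be given exactly.

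Groups were read from the sample titles. Genes that reached 1 FPKM in 3 or more libraries entered 1 limma-trend model (limma 3.58.1, R 4.3.3) on log2(FPKM + 1) over all 9 libraries, with two-sided tests of the 3 pairs of groups and Benjamini-Hochberg adjustment over 10185 genes at 0.05. The model was also run on simulated data, with noise drawn independently for each gene and library. The real libraries held deviations shared by many genes, which the simulation lacked, so it does not check the p-values given here. Tables and figures used Python 3.11.15, numpy 2.4.6, pandas 2.3.3 and matplotlib 3.10.9. The repair genes, all gene lists, the tests and the alternatives were chosen with earlier results of these data known. Library values are given for the genes with the largest change of each role, for every gene called between the primed groups, for those next to the threshold and for genes called nowhere; of other repair genes at most 3 rises and 3 falls per list are named, besides Trp53 and Cdkn1a, and some genes are not reported here, and for overlapping exons the gene on the other strand. Transcript length, exon overlap and coordinates came from RefSeq and GENCODE on GRCm38, the assembly that mm10 names, and promoter windows from RefSeq (GRCm38.p6).

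Same-numbered libraries were checked for pairing: deviations from the group means correlated at 0.160, 0.116 and 0.236 between naive and spleen-primed libraries, 0.145, -0.241 and 0.116 between naive and MLN-primed, and 0.645, -0.240 and 0.485 between the primed groups. Each group mean rests on only 3 libraries, so these correlations cannot settle whether the numbers pair libraries, and no label states a pairing. The main model used no block, and the replicate block was run as an alternative. The alternatives changed the pseudocount (0.1), the filter (none, or 5 FPKM), the scaling or the variance model: median-of-ratios scaling, quantile normalisation, removal of the trend with length and GC content, robust variance, only the groups compared, the replicate block, each library left out, and leaving out MLN-primed 1 together with spleen-primed 3.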

Additional observations from a re-analysis of the deposited data

Results flagged for a closer look

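Apex1 and Lig3 stand out because their changes from naive ran in opposite directions in the primed groups, and the difference between the changes passed the test. For Apex1 the change in MLN-primed minus that in spleen-primed cells was 1.05 on the log2 scale (adjusted p = 7.47e-05, limma), higher in 3 of 3 MLN-primed than in any spleen-primed library. For Lig3 it was 0.41 (adjusted p = 0.00641), and neither of its own changes from naive was secure. Both genes share exon bases with a gene on the other strand, 70.8% for Apex1 and 27.9% for Lig3, whose part in the values was not tested.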

How the results depend on the processing

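Of the calls on the 33 repair genes, 22 of 24 rises and 2 of 4 falls in spleen-primed cells, 26 of 27 rises and 1 of 3 falls in MLN-primed cells, and 9 of 13 differences between the primed groups held under all 19 alternatives that tested the gene; a filter of 5 FPKM left 27 of the 33 genes. Under quantile normalisation Parp1 (0.31, adjusted p = 0.0511, limma) and Xrcc5 (0.16, adjusted p = 0.063) missed the threshold in spleen-primed cells. Median-of-ratios scaling moved the median of all genes by -0.111, -0.152 and -0.0397 in the 3 comparisons (spleen-primed and MLN-primed against naive, then MLN-primed against spleen-primed), and quantile normalisation by -0.168, -0.187 and -0.0248.

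With a filter of 5 FPKM, and likewise with the length and GC trend removed, 2 repair genes in place of 4 were lower in spleen-primed cells and 1 in place of 3 in MLN-primed cells. The filter also left 10 in place of 18 other repair genes lower in spleen-primed cells, since fewer low genes were tested. Leaving out 1 library gave 24 to 25 repair genes higher and 4 to 6 lower in spleen-primed cells, 26 to 27 higher and 2 to 3 lower in MLN-primed cells, and 9 to 16 higher and 0 lower between the primed groups. For the other repair genes it gave 18 (without spleen-primed 2) to 32 higher and 1 to 5 lower between the primed groups, where 4 were lower over all libraries; 1 was lower without spleen-primed 2, MLN-primed 1 or MLN-primed 3, and 2 without spleen-primed 1 or spleen-primed 3. With MLN-primed 1 and spleen-primed 3 both left out, 18 repair genes were higher between the primed groups. The cause of these shifts was not tested.

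Directions turned as follows. With the length and GC trend removed, the log2 change in spleen-primed cells became 0.033 for Lig3, 0.31 for Prkdc, 0.024 for Trp53bp1, 0.089 for Atm and 0.24 for Atr, and in MLN-primed cells 0.25 for Prkdc, 0.30 for Trp53bp1, 0.0037 for Atm and 0.34 for Atr. Leaving out 1 library turned further directions, none of which passed. For Rad50 in spleen-primed cells the range was -0.16 (without spleen-primed 3, and also with MLN-primed 1 left out besides) to 0.28, and for Atr in MLN-primed cells -0.15 to 0.018 (without naive 3). Between the primed groups the ranges were -0.048 to 0.0062 for Fanci and -0.079 to 0.0090 for Lig4 (both highest without MLN-primed 3), -0.0035 (without spleen-primed 1) to 0.15 for Atr, and -0.13 to 0.030 (without MLN-primed 3) for Prkdc, which was 0.016 without spleen-primed 2 and 0.013 with MLN-primed 1 and spleen-primed 3 both left out. Cdkn1a ranged from -0.048 to 0.028 (without spleen-primed 1), with 0.019 without MLN-primed 2, 0.026 without MLN-primed 3 and 0.0051 with the length and GC trend removed.

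With the replicate number as a block, 25 repair genes were higher and 4 lower in spleen-primed cells, Xrcc1 (0.32, adjusted p = 0.0113) being the only call of the 33 that changed there. In the other comparisons the block gave 27 higher and 3 lower in MLN-primed against naive cells, with Rad50 (adjusted p = 0.0293) and Trp53bp1 (0.0249) gained and Lig3 (0.058) and Prkdc (0.0513) lost, and 15 higher between the primed groups, with Brca2, Xrcc1 and Trp53bp1 gained and Rad54l lost. The numbers were not shown to pair libraries in any comparison. Over all genes the block called 7928 in place of 7718, 8207 in place of 8020 and 3382 in place of 3093. Depth limits the naive level of the most induced genes, estimated at 12.5 fragments for the lowest value of Rad54l.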

Other observations

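The target genes of p53, which link DNA damage to arrest and death, rose and fell after priming in the numbers given above; the genes named here were chosen after their values were seen. Higher in both primed groups were Cdkn1a, the death genes Pmaip1 (log2 change 1.20 after spleen priming and 1.09 after MLN priming) and Bax (0.64 and 0.84), and Ccng1, a regulator of p53 (0.59 and 0.55). Lower in both were the stress gene Sesn1 (-3.43 and -3.70), the death gene Bbc3 (-2.62 and -2.96), Trp53inp1, a cofactor of p53 (-1.57 and -2.79), and the growth inhibitor Btg2 (-1.06 and -1.76). Mdm2, the ubiquitin ligase that degrades p53, did not pass in either (-0.04 and -0.01). Between the primed groups the nuclease gene Aen was higher in MLN-primed cells by 0.60 ± 0.14 (adjusted p = 0.00891, limma), and Trp53inp1 (-1.22 ± 0.16, adjusted p = 0.000491), Btg2 (-0.70 ± 0.13, adjusted p = 0.00297) and the death receptor gene Fas (-0.56 ± 0.12, adjusted p = 0.00739) were lower.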
